A study of Homo sapiens with 8 samples.

Results

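Tri-culture microglia are human microglia, made from the pluripotent line H1 and labelled with GFP, that were grown together with other cells and then recovered by fluorescence-activated cell sorting for bulk RNA sequencing. They form 4 of the 8 libraries of the series. They were taken by their label alone, as 1 library from each of 4 independent batches, and are called libraries 1 to 4 after the batch number. Per the labels, these cultures were given no exogenous cytokine, had 3 medium changes a week and were harvested 2 weeks after plating. The labels do not name the partner cells. The other 4 libraries are H1 microglia of the same batches kept alone with IL-34 at 100 ng/mL and M-CSF at 10 ng/mL. Their levels are quoted only as a background measured the same way, and no test against them was made. The labels use both a name for induced pluripotent cells and the line name H1, an embryonic stem cell line. Which of these names is right is not settled by the labels. Taken by the line name, H1, all values come from 1 line.

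As the macrophages that live within the brain, microglia depend on the receptor CSF1R, whose ligands are M-CSF and IL-34, and on TGF-beta signalling, which sustains the homeostatic genes P2RY12, CX3CR1 and SALL1. Under a load of lipid or cell debris microglia switch on SPP1, GPNMB, APOE and LPL. Astrocytes are defined by GFAP, the filament protein of their cytoskeleton, and AQP4, their water channel, and fibroblast-like cells by fibrillar collagens and small proteoglycans such as decorin (DCN).

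The libraries held 17602010 to 24491765 counts. Between 13605 and 15129 genes reached 1 CPM (counts scaled to a total of 1000000 per library), the scale of all levels here unless a per-length signal is named. The first principal component of log2 CPM carried 65.6% of the variance and put libraries 1 and 2 (scores -36.8 and -23.2) apart from libraries 3 and 4 (24.7 and 35.3). The second carried 22.7% and set library 2 (-27.2) apart from library 1 (22.4). The 82 ribosomal protein genes took 4.29% and 4.19% of the counts in libraries 1 and 2 and 2.69% and 2.63% in libraries 3 and 4.

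The markers of the labelled cell type were present in all 4 libraries. Of 21 pan-leukocyte and macrophage genes, 20 had a mean of at least 5 CPM, and of 20 homeostatic microglial genes 19 did. The macrophage marker CD68 was the exception in the first list, at 0.448, 0.122, 0.529 and 0.284 CPM. In GENCODE 29, 85.8% of the CD68 exon bases are shared with another gene, and how reads over shared bases were counted is not given in the sources used here, so its level is uncertain. The glucose and fructose transporter gene SLC2A5 was the exception in the second, at 1.09 ± 0.656 CPM (mean ± SD, n = 4). None of 15 erythroid, megakaryocyte and mast cell genes reached 5 CPM, and 11 of them, the globin genes HBA1 and HBA2 included, had no count in any library. A single gene of 13 for lymphocytes and neutrophils, CSF3R, a single gene of 7 for pluripotent cells, DNMT3B, and a single gene of 9 for endothelium, EGFL7, reached that level. Astrocyte genes (14 of 20) and mesenchymal and matrix genes (15 of 24) reached it as well. In bulk RNA, fewer cells of a type and less RNA per cell of that type cannot be told apart.

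The most abundant genes were read on the deposited per-length signal, rescaled to a total of 1000000 units per library, since only a value per length can be compared between genes. A transcript without a symbol, ENSG00000281181, was highest at 102961 ± 8762 units (SD, n = 4). It is an annotated lincRNA of 923 exon bases on the minus strand of chromosome 21 from 8437629 to 8438551 (GRCh38, GENCODE 29). A second lincRNA of the same exon length, ENSG00000280614, lies at 8393419 to 8394341 of that chromosome and had a signal of 6510.2 ± 295 units. Whether strand was used and how reads with several matches were counted is not given in the sources used here. The levels of both lincRNAs are therefore uncertain, and which RNA their reads came from was not tested. Mitochondrial transcripts came next, led by MT-CO1, a subunit of cytochrome c oxidase, at 29351 ± 822 units. The 13 protein-coding mitochondrial genes together took 17.4% ± 0.304 of the signal.

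Below these stood nuclear genes of the cytoskeleton, the lysosome and antigen presentation. The actin-binding peptide gene TMSB4X had a signal of 8242 ± 1317 units. PSAP, which encodes the precursor of the lysosomal saposins, had a signal of 6658 ± 438 units. HLA-DRA, the alpha chain of the MHC class II molecule HLA-DR, reached 5975 ± 632 units, and CD74, the chaperone of class II molecules, 4585 ± 1174 units. The osteopontin gene SPP1 had 5524 ± 2218 units, with the largest SD of the genes in this paragraph. Among the 25 highest genes with a symbol stood also the iron store gene FTL, the actin gene ACTB and EEF1A1, a translation factor gene whose processed pseudogene EEF1A1P5 is listed too. Reads of EEF1A1 and EEF1A1P5 may be split between the near-identical copies, so both levels are uncertain.

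**Figure D1:**
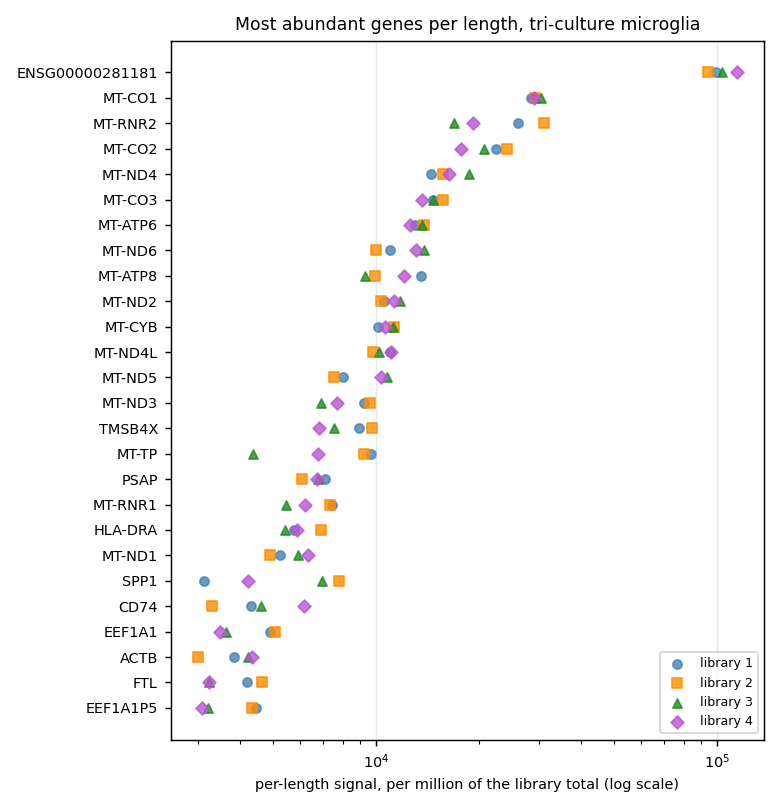
Deposited per-length signal of the 25 genes with a symbol of the highest mean and of ENSG00000281181, rescaled to a total of 1000000 units per library (log axis), with 1 point per library. The points of a gene mostly lie close together, while SPP1 runs from 3123 in library 1 to 7807 in library 2.

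The 25 genes with the most counts held 14.4% ± 0.647 of all counts (SD, n = 4). By counts the order began with ENSG00000281181, at 2.59% ± 0.158 of a library, followed by MT-CO1 (1.23%), EEF1A1 (1.18%), SPP1 (1.09%) and MT-RNR2 (1.00%). PSAP, MT-ND4, CD74, ACTB, MT-ND5 and A2M, a protease inhibitor gene, completed the 10 genes with a symbol. The large ribosomal RNA of mitochondria, MT-RNR2, stood at 11466, 13696, 6922 and 7968 CPM in libraries 1 to 4, with libraries 1 and 2 above libraries 3 and 4. The 13 protein-coding mitochondrial genes showed no such split, at 4.45% ± 0.0970 of the counts.

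Most genes differed between the 4 batches by more than the counting error of their reads. A likelihood ratio test with Poisson error (edgeR, library as the factor, Benjamini-Hochberg adjusted p under 0.05) called 11608 of 14586 genes, 79.6%. Of genes with a mean of at least 5 CPM, 9446 of 10792 were called, 87.5%. The test has 1 library a batch, so culture, sorting and library preparation cannot be told apart in it. It was made on genes kept by a filter that requires reads in all 4 libraries. A gene near 0 in 1 library therefore did not enter.

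The size of the spread was modest for most genes. Among 10801 genes with a mean of at least 5 CPM, the median ratio of the highest to the lowest library was 1.36, with quartiles of 1.21 and 1.58. In 1033 of them, 9.56%, the highest library was at least 2-fold the lowest, and in 268, 2.48%, at least 3-fold. Without library 4 the first count was 630 of 10701. The common biological coefficient of variation was 0.214. The highest value fell in library 1 for 23.6% of genes, in library 2 for 25.4%, in library 3 for 19.1% and in library 4 for 31.9%. These shares, with those for the lowest value (28.8%, 29.6%, 16.7% and 24.9%), are the background against which the gene groups below are read. Libraries 3 and 4 both lay above libraries 1 and 2 in many genes. The orders 4>3>1>2, 4>3>2>1, 3>4>2>1 and 3>4>1>2 held 13.6%, 10.9%, 7.31% and 5.44% of the genes. The reverse split was common too. The orders 2>1>3>4, 1>2>3>4, 1>2>4>3 and 2>1>4>3 held 10.1%, 7.25%, 6.53% and 4.22%. The groups themselves are described by counts, since 4 libraries are fewer than the 6 needed for a correlation.

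Some abundant genes had nearly equal levels in the 4 libraries. FBXO7, an adaptor of a ubiquitin ligase, stood at 127, 127, 128 and 128 CPM. The nuclear import gene KPNA6 stood at 114, 114, 114 and 116 CPM. The highest library was no more than 1.03-fold the lowest in these genes or in MAP3K7, RER1, CBFB, LARS1, RAB21, IP6K2 and NDUFA10, further members of the 10 smallest ratios at a mean of at least 50 CPM.

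Of the 10 largest ratios at that mean, 7 belonged to genes that were highest in library 4 and next in library 3. They were the nuclear RNA NEAT1, GOLGA8A, FCGBP and the near-identical genes NPIPB3, NPIPB4, NPIPB5 and NPIPB13. NEAT1, the scaffold of paraspeckles, stood at 37.8, 61.2, 126 and 199 CPM in libraries 1 to 4. FCGBP, a mucin-like secreted protein gene, stood at 333, 185, 834 and 921 CPM. Libraries 3 and 4 lay above libraries 1 and 2 for both genes. The members of the NPIPB family share long stretches of sequence, so how reads were divided among them is uncertain. The other 3 of the 10 were COL3A1, GFAP and CLU.

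Levels also differed by transcript length along the same split. Of the 10801 genes, 98.1% had an exon length in GENCODE 29, and these were put into 5 groups of nearly equal size by length. In the group of the shortest genes (66 to 3059 exon bases) the median log2 ratio of a gene to its own mean was 0.10 and 0.09 in libraries 1 and 2 and -0.09 and -0.13 in libraries 3 and 4. In the group of the longest (8520 to 118976) it was -0.13 and -0.11 against 0.09 and 0.12. Among long abundant genes, the scavenger receptor gene LRP1 stood at 243, 170.1, 538 and 562 CPM, the cytolinker gene PLEC at 408, 299, 897 and 949.9 CPM and the histone methyltransferase gene KMT2D at 94.1, 98.0, 235 and 278 CPM. All 3 were at least 2-fold higher in libraries 3 and 4 than in either of the others. They were chosen after their values were seen, and the medians above give the typical size for long genes. CD36, with 10880 exon bases, was instead highest in library 2, at 1135, 1421, 1356 and 1218 CPM. The part of length in the gene groups below was not tested. Median exon lengths are given here or beside the groups, against 5288.5 bases for all genes. They were 4647 bases for pan-leukocyte, 4700 for homeostatic, 3598 for MHC class II and 2168.5 for complement genes. Dendritic genes had 2096 bases, monocyte genes 1764, interferon genes 4834 and immediate early genes 3105. Inflammatory genes had 2794 bases, cell cycle genes 3732.5, progenitor genes 4143 and neuronal genes 9261.

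**Figure D2:**
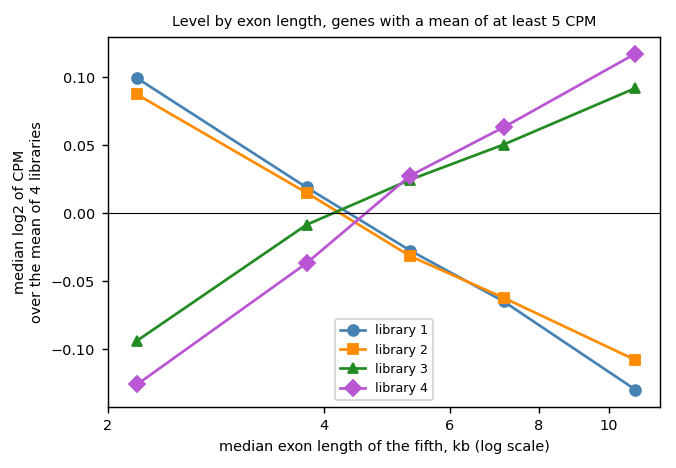
Median log2 of CPM over a gene's own mean of 4 libraries, for 5 groups of genes by exon length (log axis), with 1 line per library. Libraries 1 and 2 fall with length from 0.10 and 0.09 to -0.13 and -0.11, while libraries 3 and 4 rise from -0.09 and -0.13 to 0.09 and 0.12.

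Genes shared by leukocytes and macrophages varied little in sum. The 21 genes together made 13454, 11929, 12828 and 13079.9 CPM in libraries 1 to 4, and library 2 was the lowest. Of the 20 above 5 CPM, 4 had a highest library at least 2-fold the lowest (9.56% of all genes), and the median ratio was 1.35 against 1.36 for all genes. In 12 of the 20, against 29.6% of all genes, library 2 was the lowest. The leukocyte phosphatase gene PTPRC (CD45) was steady at 672, 676, 645 and 607 CPM. LAPTM5, a lysosomal membrane protein of blood cells, was highest of the list in CPM, at 2351, 1974, 2083 and 2129.

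The members with a 2-fold range did not share 1 order. CSF1R, the receptor for M-CSF and IL-34, stood at 1803, 1101, 2241 and 2439 CPM, lowest in library 2 and highest in library 4. ITGAM (CD11b), the alpha chain of complement receptor 3, had the widest range of the 20 members above 5 CPM, 39.8, 25.4, 90.8 and 102 CPM, with libraries 3 and 4 above the others. FCGR3A, an Fc receptor for IgG, was highest in library 1, at 132, 51.2, 43.6 and 69.9 CPM. The transcription factor gene RUNX1 stood at 69.8, 40.9, 68.5 and 87.7 CPM. AIF1 (IBA1), the actin-binding protein used to stain microglia, was highest in library 1 without reaching a 2-fold range, at 576, 450.2, 305 and 366 CPM.

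Homeostatic microglial genes were also steady in sum, at 5665, 5757, 6556 and 6387 CPM. Of the 19 above 5 CPM, 3 had a 2-fold range (9.56% of all genes), and the median ratio was 1.54 against 1.36 for all genes. Library 4 was the highest in 8 of the 19 (31.9% of all genes) and library 2 the lowest in 9 (29.6%). The order 4, 3, 1 and 2 was held by 4 of them, against 13.6% of all genes. The fractalkine receptor gene CX3CR1 stood at 726, 574, 1045 and 1126 CPM. P2RY12, the ADP receptor of resting microglia, stood at 53.8, 57.7, 92.5 and 94.6 CPM. Both were higher in libraries 3 and 4 than in libraries 1 and 2, with no overlap, a split common among all genes. The TGF-beta receptor gene TGFBR1 was lowest in library 1, at 690.4, 1066, 1077 and 935 CPM. TMEM119, a membrane protein gene of microglia, was highest in library 1 instead, at 24.5, 11.4, 10.8 and 13.5 CPM.

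SALL1, a transcription factor gene that marks microglia among macrophages, had the widest range of the 19 homeostatic genes above 5 CPM. It stood at 3.54, 9.23, 13.9 and 13.9 CPM, with library 1 well below the others. SALL1 had no count in any mono-culture library. The progenitor gene SOX2, given below, was likewise lowest in library 1 and without a mono-culture count. Which cells the SALL1 reads came from was not tested. TREM2, a lipid-sensing receptor gene, stood at 426, 594, 465 and 392 CPM and was highest in library 2. GPR34, a lysophosphatidylserine receptor gene, had the same order, at 453, 619, 543 and 452 CPM. Among other abundant members, MEF2C stood at 549, 478, 489 and 521 CPM and CD81 at 663, 575, 666 and 697 CPM, both with a range narrower than that of TREM2. MAF was lowest in library 2, at 603, 384, 595 and 659.7 CPM.

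**Figure D3:**
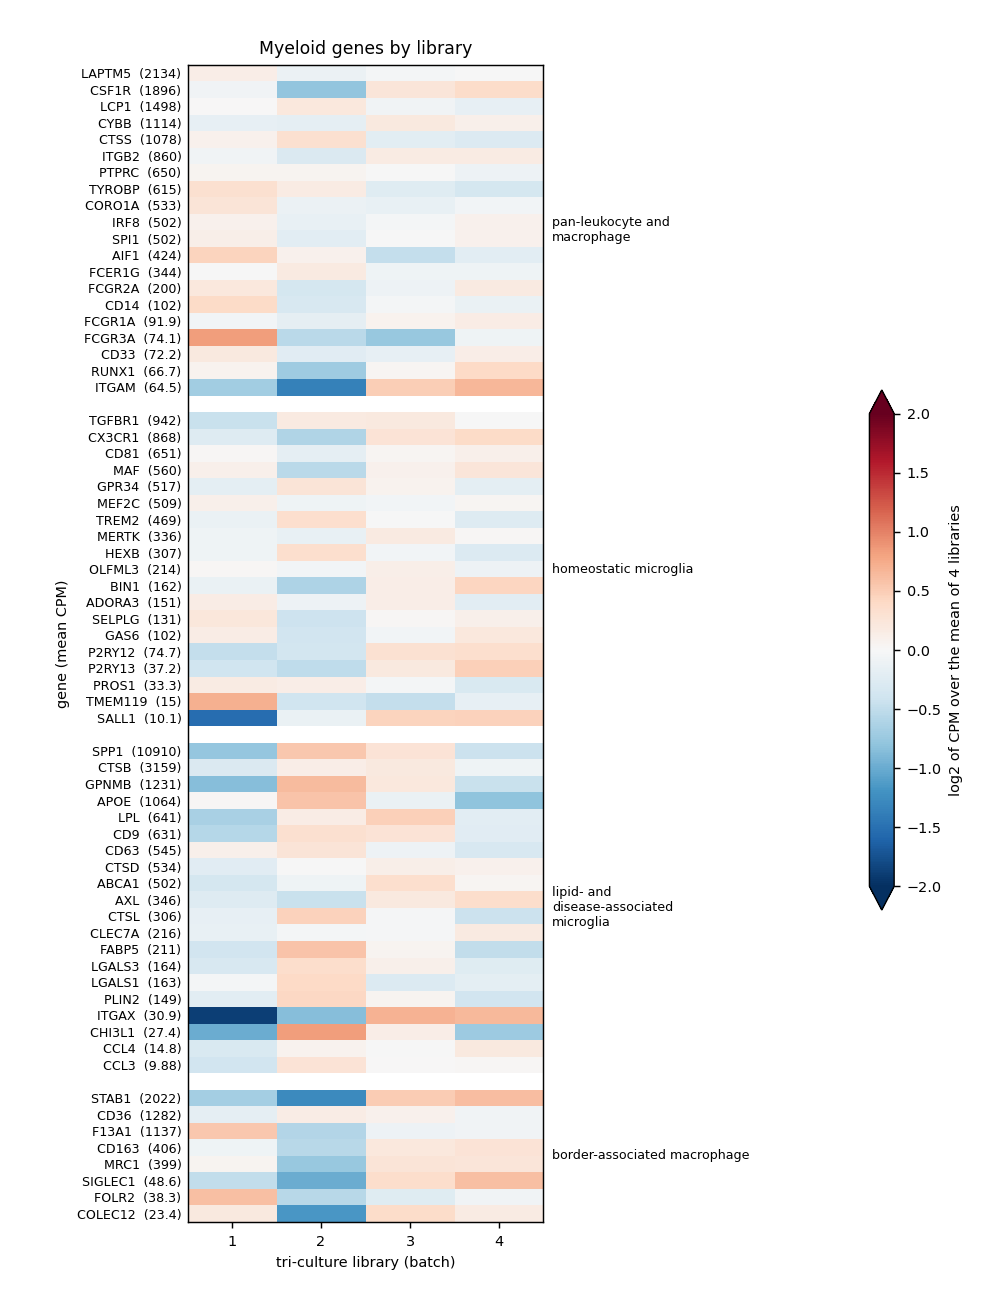
Log2 of CPM over the mean of 4 libraries for the genes of 4 myeloid lists with a mean of at least 5 CPM, sorted by mean CPM (in parentheses). Colours stop at -2 and 2. The lipid- and disease-associated genes are highest in library 2 in 12 of 20 rows, and the border macrophage genes lowest in library 2 in 7 of 8.

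Lipid- and disease-associated genes differed widely between the batches. The 20 genes together made 14404, 27983, 24289.7 and 16730.4 CPM, 1.94-fold higher in library 2 than in library 1. Much of this range came from SPP1, the most abundant member. Without SPP1 the list summed to 8004, 12046, 11084 and 8634 CPM, a narrower range with the same order of libraries. Of the 20, 7 had a 2-fold range, against 9.56% of all genes, and the median ratio was 1.73. Library 2 was the highest in 12 (25.4% of all genes) and library 1 the lowest in 13 (28.8% of all genes). The order of libraries 2, 3, 4 and 1 was shared by 5 of the 20, against 3.9% of all genes. The median exon length of the list was 3267 bases.

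SPP1, the secreted matrix protein osteopontin, led the group at 6400.4, 15938, 13205 and 8097 CPM. The membrane glycoprotein gene GPNMB stood at 681, 1916, 1424 and 900.5 CPM in the same order. Set against SPP1 in the same library, GPNMB made 10.6, 12.03, 10.8 and 11.1 counts per 100 SPP1 counts, so the pair kept nearly the same proportion in all 4. CD9, a tetraspanin gene, made 6.67, 4.96, 5.80 and 6.67 counts per 100 SPP1 counts. The lipoprotein lipase gene LPL stood at 408, 709, 890.0 and 556 CPM, with library 3 above library 2. CHI3L1, a secreted chitinase-like protein gene, had the order of SPP1 and a range of 3.58-fold, at 13.7, 49.1, 30.1 and 16.6 CPM.

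Not every member kept to the SPP1 order. The apolipoprotein gene APOE stood at 1086, 1587, 975 and 608 CPM, highest in library 2 and lowest in library 4. Per 100 SPP1 counts, APOE fell from 17.0 in library 1 to 7.38 in library 3 and 7.51 in library 4. The neighbouring apolipoprotein gene APOC1, with 43.2% of its exon bases shared with another gene, stood at 42.4, 122, 46.6 and 30.1 CPM. ITGAX (CD11c), the alpha chain of complement receptor 4, had the widest range of the list, 8.34, 17.2, 49.8 and 48.3 CPM, with libraries 3 and 4 above the others. The cathepsin gene CTSB stood at 2587, 3476, 3611 and 2961 CPM. In the mono-culture libraries SPP1 ranged from 7218 to 13491 CPM, which overlaps the tri-culture values.

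**Figure D4:**
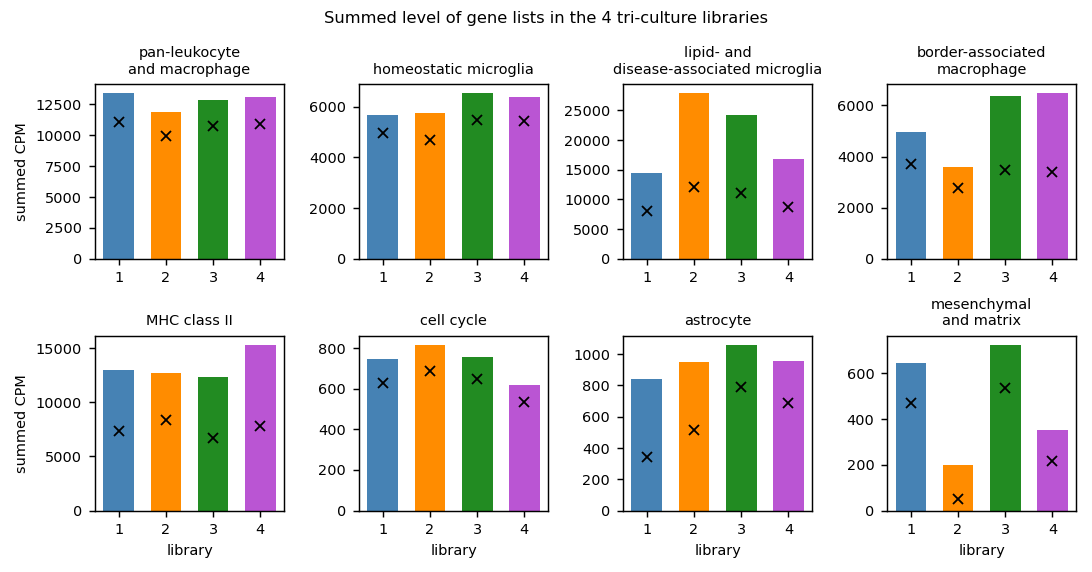
Summed CPM of 8 gene lists in each tri-culture library (bars, from 0), with crosses for the sum without the most abundant member of the list. The pan-leukocyte bars are within 1.13-fold of each other, while the mesenchymal bars differ 3.67-fold and their crosses 10.2-fold.

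MHC class II genes moved within a narrow range. The 12 genes summed to 13019, 12736, 12330.3 and 15354 CPM. None had a 2-fold range (9.56% of all genes), and the median ratio was 1.30 against 1.36 for all genes. Library 4 was the highest in 8 of 12 (31.9% of all genes) and library 3 the lowest in 8 (16.7%). CD74 stood at 5625, 4315, 5593 and 7549 CPM and HLA-DRA at 3214, 3839.6, 2812 and 3077 CPM, so their highest libraries differed. The master regulator gene CIITA, with 23.4% of its exon bases shared with another gene, stood at 175, 178, 204 and 304 CPM. HLA-DRB1 and HLA-DRB5 are similar in sequence, and the division of reads between them is uncertain. In mono-culture the same 12 genes summed to 604 to 926 CPM.

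Complement genes showed no 2-fold range among the 8 of 14 above 5 CPM (9.56% of all genes), with a median ratio of 1.60. C3, the central component, was the most abundant in CPM, at 4131, 2453, 3991 and 4843, lowest in library 2. C1QC, a chain of the initiating complex C1q, was steady at 1553, 1389, 1428 and 1419 CPM. C1QB stood at 749, 592, 524 and 454 CPM and C1QA at 339, 216, 186 and 214 CPM, both highest in library 1.

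Border-associated macrophage genes, which mark macrophages of the meninges and vessels, were lowest in library 2. They summed to 4962, 3589.9, 6379 and 6499 CPM, with 6 of 8 above a 2-fold range (9.56% of all genes) and a median ratio of 2.21. Library 2 was the lowest in 7 of the 8, against 29.6% of all genes, and the median exon length was 6576.5 bases. The scavenger receptor gene STAB1 stood at 1264, 838, 2887 and 3099 CPM. Its libraries 3 and 4 were more than 2-fold above libraries 1 and 2. Without STAB1 the list summed to 3698, 2752, 3492 and 3401 CPM, highest in library 1, with a range of 1.34-fold. F13A1, a transglutaminase gene, was highest in library 1, at 1644, 758, 1064 and 1082 CPM. The mannose receptor gene MRC1 stood at 413, 236, 475 and 470.1 CPM, and CD163, the haemoglobin scavenger receptor gene, at 384, 275, 471 and 493 CPM. CD36, a fatty acid uptake receptor gene, was the 1 member not lowest in library 2, at 1135, 1421, 1356 and 1218 CPM. LYVE1 and CD209 stayed below 5 CPM, at means of 0.620 and 0.673 CPM.

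Dendritic and Langerhans cell genes leaned to library 2, which was the highest in 5 of 7 above 5 CPM (25.4% of all genes). CLEC10A, a galactose-type lectin gene, stood at 195, 117, 115 and 116 CPM and was highest in library 1. FCER1A, the alpha chain of the IgE receptor, stood at 57.6, 122, 74.5 and 109 CPM. CD207 (langerin), the lectin of Langerhans cells, had the widest range of the 7, 24.2, 71.3, 57.7 and 46.9 CPM. It was at most 0.162 CPM in mono-culture. Among 9 monocyte genes 3 were above 5 CPM. Lysozyme (LYZ), with 34.0% of its exon bases shared, stood at 255, 285, 151 and 112 CPM and the calcium-binding gene S100A9 at 57.7, 36.0, 22.0 and 27.3 CPM, both higher in libraries 1 and 2 than in libraries 3 and 4.

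Interferon and inflammatory genes stayed below a 2-fold range. None of 15 interferon response genes and none of 10 inflammatory genes above 5 CPM reached it, against 9.56% of all genes. Their median ratios of 1.51 and 1.46 were nonetheless above the 1.36 of all genes. The cytokine gene IL1B was steady at 91.9, 96.2, 107 and 104 CPM, and IL6 had no count in any library. Immediate early and heat shock genes had a 2-fold range in 5 of 14 above 5 CPM, against 9.56% of all genes. ATF3, a stress response factor gene, stood at 40.1, 91.3, 96.8 and 62.0 CPM, and JUN at 204, 132, 145 and 170.0 CPM. NR4A1, a nuclear receptor gene, had the second widest range after EGR2 among the 14, 5.33, 4.45, 9.28 and 14.5 CPM.

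Cell cycle genes shared 1 order more than any other myeloid or state list. In 11 of 20 the libraries ran 2, 1, 3 and 4 from high to low, against 10.1% of all genes. Library 2 was the highest in 13 and library 4 the lowest in 15, against 25.4% and 24.9% of all genes. The sums were 745, 819, 757 and 621 CPM, a range of 1.32-fold. TOP2A, the topoisomerase of dividing cells, stood at 115, 131, 109 and 83.1 CPM and the mitotic kinase gene CDK1 at 37.8, 58.4, 32.0 and 25.3 CPM. MKI67, the proliferation marker Ki-67, broke the order with its highest value in library 3, 73.9, 83.9, 127 and 91.7 CPM.

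Astrocyte genes were present in every library and shared the order 3, 4, 2 and 1. Of the 14 above 5 CPM, 10 had this order, against 7.31% of all genes. In 13 of the 14 library 1 was the lowest, and in 11 library 3 was the highest (28.8% and 19.1% of all genes). A 2-fold range was seen in 11 (9.56% of all genes), and the median ratio was 3.11 against 1.36 for all genes. All 14 were beyond counting error (87.5% of genes of that mean). The median exon length was 6130 bases.

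GFAP stood at 61.7, 151, 269 and 220.2 CPM in libraries 1 to 4, against 0.150 to 0.415 CPM in mono-culture. The gene lies on chromosome 17 at 44903161 to 44916937 on the minus strand (GRCh38). Library 1 was the lowest and library 3 4.36-fold higher. AQP4 stood at 11.0, 19.2, 38.2 and 28.7 CPM and had no count in mono-culture. Per 100 GFAP counts, AQP4 made 17.9, 12.7, 14.2 and 13.03 counts, a range of 1.40-fold where each gene alone ranged over 3-fold. NTRK2, the receptor for BDNF, made 28.1, 20.5, 19.7 and 24.4 counts per 100 of GFAP. The gap junction gene GJA1 made 31.4, 16.9, 18.4 and 18.7, with library 1 the highest. ATP1B2, a sodium pump subunit gene, had the widest range of the list, 1.17, 7.02, 13.5 and 13.1 CPM.

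PTPRZ1, a phosphatase receptor gene of glia, stood at 8.20, 8.74, 24.4 and 16.4 CPM and had no count in mono-culture. CLU, which encodes the secreted chaperone clusterin, is no member of the list but was among the 10 largest ratios, at 17.4, 39.5, 98.5 and 72.5 CPM. It had the GFAP order and made 28.2, 26.2, 36.6 and 32.9 counts per 100 of GFAP. Its mono-culture levels were 0.259 to 0.614 CPM.

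S100B went the other way. This calcium-binding protein gene was the most abundant of the astrocyte list in CPM, at 495, 436, 268 and 264 CPM, highest in library 1. Per 100 GFAP counts it made 802, 289, 99.8 and 120 counts. Mono-culture libraries held it at 101 to 145 CPM. The summed astrocyte list ranged only 1.26-fold, 840.0, 949, 1062 and 954 CPM, and without S100B 2.30-fold, 346, 513, 793 and 690.3 CPM. NDRG2, a glial stress gene, stood at 124, 129, 125 and 139 CPM against 12.6 to 20.2 CPM in mono-culture, with little spread. The glutamate transporter gene SLC1A3 stood at 66.1, 87.3, 100.3 and 85.0 CPM, against 85.6 to 139 CPM in mono-culture, so these ranges overlapped.

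**Figure D5:**
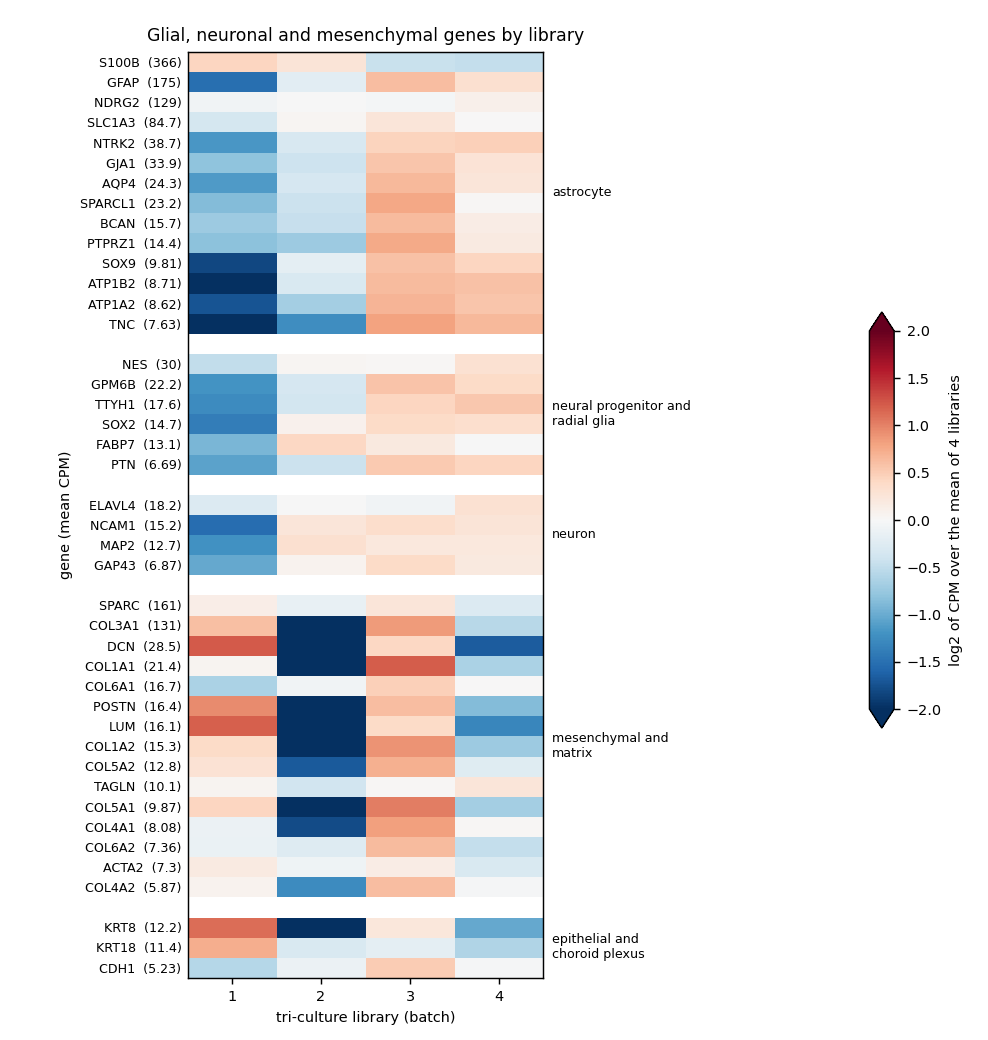
Log2 of CPM over the mean of 4 libraries for glial, neuronal, mesenchymal and epithelial genes with a mean of at least 5 CPM, sorted by mean CPM (in parentheses) within each list. Colours stop at -2 and 2, and values below 3 counts are drawn at 3 counts. Astrocyte genes are lowest in library 1 in 13 of 14 rows, and mesenchymal genes lowest in library 2 in 11 of 15.

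Genes of neural progenitors and neurons shared the low library 1. All 6 progenitor genes and all 4 neuronal genes above 5 CPM were lowest there (28.8% of all genes). Of these, 5 of 6 and 3 of 4 had a 2-fold range (9.56% of all genes). The stem cell factor gene SOX2 stood at 5.65, 15.6, 19.1 and 18.5 CPM, with no count in mono-culture. The proteolipid gene GPM6B stood at 9.68, 17.5, 32.8 and 28.8 CPM, and TTYH1, a chloride channel gene of progenitors and glia, at 7.40, 13.6, 23.8 and 25.7 CPM. MAP2, a dendritic microtubule protein gene, stood at 5.51, 16.0, 14.7 and 14.7 CPM, but mono-culture held 11.6 to 19.7 CPM. STMN2, an axon growth gene, had 0.762, 1.96, 4.09 and 1.19 CPM, below the 5 CPM floor, and the glutamatergic marker SLC17A6 0, 0.0817, 0.289 and 0.114 CPM. Of 12 oligodendrocyte genes, MBP and CNP alone exceeded 5 CPM, and both had 138 and 87.5 CPM or more in every mono-culture library.

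The GFAP order was followed over the whole table to see which genes kept it. With a ratio of at least 3-fold, 45 of 10801 genes (0.417%) had the order 3, 4, 2 and 1. Of the 45, 11 were members of the astrocyte, progenitor or neuronal lists, which held 14, 6 and 4 genes of the 10801. A mono-culture mean under 1 CPM was seen in 24 of the 45, and one of at least 5 CPM in 15. The shares of all genes at these mono-culture levels were not counted, so these last counts have no background. NCAN, a proteoglycan gene of neural matrix, stood at 5.74, 7.19, 21.5 and 18.9 CPM and MLC1, a membrane protein gene of astrocyte endfeet, at 6.46, 9.96, 21.0 and 15.4 CPM. Both were nearly absent from mono-culture, with at most 0.0587 and 1.07 CPM. The 45 also included myeloid genes such as ITGAX and the transcription factor gene EGR2, at 5.83, 16.8, 23.6 and 19.6 CPM. Their median exon length was 6807.5 bases.

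Ligands of CSF1R and of the TGF-beta receptors differed in level. CSF1, which encodes M-CSF, was among the 45 genes, at 2.15, 6.78, 9.43 and 9.09 CPM. Its range in mono-culture was 2.76 to 5.40 CPM. IL34 had 1 count in all, in library 3. TGFB1 stood at 130.4, 85.4, 147 and 163 CPM in the order of CSF1R, 4, 3, 1 and 2. TGFB2, with 26.6% of its exon bases shared with another gene, was among the 45, at 3.05, 5.72, 11.7 and 10.5 CPM.

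Mesenchymal and matrix genes had the highest median ratio of the 23 lists with a gene above 5 CPM. Of the 15 above 5 CPM, 12 had a 2-fold range, against 9.56% of all genes, and the median ratio was 6.14. Library 2 was the lowest in 11 and library 3 the highest in 10 (29.6% and 19.1% of all genes). The order 3, 1, 4 and 2 was held by 6 of the 15, against 1.31% of all genes. The sums were 646, 198, 726 and 350.1 CPM, and without the most abundant member, SPARC, 469.6, 52.5, 535 and 217 CPM. In the counting error test 9 of the 15 could be entered and all 9 were called. The other 6 were left out by the filter on reads in all libraries, and with no filter all 15 were called. The median exon length was 6811 bases.

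The fibrillar collagen gene COL3A1 stood at 198, 0, 236 and 89.4 CPM in libraries 1 to 4, with no count among the 24491765 of library 2. It lies on chromosome 2 at 188974320 to 189012746 on the plus strand (GRCh38). Library 3 was at least 1926-fold higher than library 2, whose floor of 3 counts is 0.122 CPM and covers counting error only. COL1A1, the main chain of type I collagen, stood at 22.3, 0.0408, 49.5 and 13.9 CPM, the value in library 2 being 1 count. COL1A2, the partner chain, stood at 19.9, 3.47, 28.7 and 9.26 CPM and was thus seen in library 2. In mono-culture COL1A2 had 2.67 to 25.8 CPM, so these ranges overlapped. The proteoglycan gene DCN stood at 66.8, 0, 38.1 and 8.98 CPM and the matricellular gene POSTN at 31.6, 0, 25.2 and 9.03 CPM, with library 1 above library 3. LUM, a proteoglycan gene of collagen matrix, had the order of DCN, at 36.9, 0, 21.1 and 6.53 CPM, and COL5A1 that of COL3A1, with its highest value of 19.96 CPM in library 3.

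These 6 genes, COL3A1, COL1A1, DCN, LUM, POSTN and COL5A1, together had 8230, 1, 8103 and 2358 counts in libraries 1 to 4. In mono-culture libraries of the same batches they summed to 3.33, 0, 4.47 and 0.176 CPM. The 6 were chosen after their values were seen. Per 100 COL3A1 counts, COL1A2 made 10.0, 12.2 and 10.4 in libraries 1, 3 and 4. DCN made 33.7, 16.2 and 10.0 and LUM 18.6, 8.93 and 7.31. COL1A1 made 11.2, 21.0 and 15.5, and COL5A1 6.72, 8.46 and 6.93. COL1A2 and COL5A1 thus stayed within 1.26-fold of their lowest proportion, COL1A1 within 1.87-fold, LUM within 2.54-fold and DCN within 3.36-fold.

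The 4 mesenchymal genes above 5 CPM that were not lowest in library 2 were SPARC, COL6A1, COL6A2 and ACTA2. SPARC, a secreted collagen-binding protein gene, stood at 176, 145, 191 and 133 CPM, and 122 to 257 CPM in mono-culture. COL6A1, a chain of microfibrillar collagen, was lowest in library 1, at 10.8, 15.8, 23.2 and 16.8 CPM, and had 23.6 to 37.8 CPM in mono-culture. Its partner chain COL6A2 stood at 6.68, 6.12, 11.4 and 5.28 CPM. The contractile gene ACTA2, with 30.1% of its exon bases shared with another gene, stood at 8.29, 6.86, 8.13 and 5.91 CPM. TAGLN, another contractile gene, was lowest in library 2 with a range under 2-fold, at 10.4, 7.76, 10.2 and 11.9 CPM. The 9 members of the list below 5 CPM included PDGFRB, a receptor gene of pericytes and fibroblasts, at 1.03, 0.204, 1.68 and 1.19 CPM, and the transcription factor gene PRRX1, at 0, 0, 0.0962 and 0.0568 CPM.

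Near absence from library 2 was looked for in all genes. Of 12655 genes with a mean of at least 2 CPM, 15 (0.119%) had at most 3 counts there, and the same count was 1 (0.0079%) in library 1, 0 (0%) in library 3 and 1 (0.0079%) in library 4. Of the 15, 6 were the mesenchymal genes above. The others were NPNT, IGF2, PRSS35, ADAMTS9, COL21A1, DSG2, KRT19, BNC1 and H19, chosen by this rule after values were seen. NPNT, an integrin ligand gene of basement membranes, stood at 27.8, 0, 27.4 and 4.15 CPM. KRT19, a keratin gene of simple epithelium, stood at 6.55, 0.0408, 2.40 and 1.14 CPM. In 11 of the 15 the order was 1, 3, 4 and 2, and in 3 it was 3, 1, 4 and 2. Of the 3192 genes with a mean of at least 5 CPM that were lowest in library 2, 242 and 141 had these orders. That floor is higher than the 2 CPM used to find the 15. The rule itself all but fixed library 2 as the last, so only the order of the other libraries is informative. A mono-culture mean under 1 CPM was found for 14 of the 15, and the share of all genes at that level was not counted. H19 alone had no count in library 4, at 10.6, 0.0817, 1.59 and 0 CPM.

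The keratin genes KRT8 and KRT18 were highest in library 1, as the genes near absent from library 2 mostly were. KRT8 stood at 26.3, 2.04, 14.3 and 5.97 CPM and KRT18 at 18.9, 9.27, 10.0 and 7.50 CPM. KRT8 held 0.420 to 0.959 CPM in mono-culture, and KRT18 4.82 to 7.67 CPM. CDH1, an epithelial adhesion gene, followed the GFAP order instead, at 3.54, 4.82, 7.41 and 5.17 CPM. The choroid plexus gene TTR had no count in any library.

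Glial and mesenchymal genes thus varied over the batches in different orders. Library 1 had the lowest GFAP (61.7 CPM) and the highest DCN (66.8 CPM) of the 4, with COL3A1 at 198 CPM. Library 2 had a GFAP level of 151 CPM and no DCN or COL3A1 count. Library 3 was high for both groups, with the highest GFAP and COL3A1 (236 CPM) and DCN at 38.1 CPM. Library 4 had 220.2 CPM of GFAP, the second highest, 8.98 CPM of DCN and 89.4 CPM of COL3A1. DCN and COL3A1 thus differed in which library was highest. The part of cell mixture, depth or library preparation in these orders was not tested.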

How the data were processed

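RNA of sorted GFP-labelled H1 microglia from 4 tri-culture batches was sequenced, 1 library a batch. The deposited gene counts are whole numbers. Per the submitters' processing notes the authors used the aligner HISAT2 2.1.0, the counter featureCounts 2.12.3 and the genome GRCh38. Which annotation was used, whether strand was used, and how reads over overlapping genes were treated is not given in the sources used here. The deposited per-length signal, named TPM by the authors in the file name, did not sum to the same total in each library, so each library was rescaled to a total of 1000000.

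Levels are CPM on the library total, without TMM factors (0.961 to 1.04). Counts held 78899 genes, of which 42163 had a symbol. Counts without a symbol made 3.47% to 4.15% of a library and stayed in its total. The Poisson likelihood ratio test used edgeR 4.0.16 in R 4.3.3 with TMM offsets and filterByExpr (minimum count 10, minimum total 15). On simulated counts for the 14586 genes it recovered 10 of 50 genes changed 1.1-fold in 1 library, 22 at 1.25-fold, 35 at 1.5-fold and 48 at 2-fold, with 2 false calls. DESeq2 1.42.0 gave alternative size factors. Coordinates and lengths are those of GENCODE 29. All 6 pairs of libraries differed beyond sampling noise (chi-square of 8.15 to 56.2 per degree of freedom), and each library counts once. Floors are 3 counts per library.

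The members and the 24 gene lists were chosen with earlier results of these data known. Genes named are the 25 highest by signal and 10 by counts, of each list up to 6 of the highest mean and the largest ratio, the 10 largest and 10 smallest ratios at a mean of at least 50 CPM, and a set of 25 named whatever their values. The remaining genes were chosen after their values were seen: the lincRNAs of chromosome 21, C1QA, CD68, CD209, CHI3L1, CIITA, COL6A2, FCGR3A, HLA-DRB5, IL6, LYVE1, MALAT1, MOBP, MOG, NR4A1, PDGFRB, PRRX1, RUNX1, SLC17A6, SLC2A5, TAGLN and TTR from the lists, APOC1, CSF1, IL34, KMT2D, LRP1, MLC1, NCAN, PLEC, TGFB1 and TGFB2, and the genes near absent from library 2. The alternatives were other scaling, other floors and filters, the signal table, other ways to sum a list and each library left out. The library that is highest or lowest in a list was recounted under other scaling, an alternative chosen after seeing the data.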

Additional observations from a re-analysis of the deposited data

Results flagged for a closer look

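Of 143 values and genes looked at, 4 had 1 library far from the other 3, with a gap above the critical value of Dixon's test for a group of 4. Chance gives such a gap in about 1 of 20 groups of 4. CLEC10A, a lectin gene of dendritic cells and macrophages, stood at 195 CPM in library 1 and at 115 to 117 CPM in the other libraries. MAP2, a dendritic microtubule gene, stood at 5.51 CPM in library 1 and at 14.7 to 16.0 CPM in the others. The imprinted RNA gene H19 reached 10.6 CPM in library 1 and at most 1.59 CPM elsewhere. IL34 had 0.0481 CPM in library 3, which is 1 count, and no count in the other libraries.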

How the results depend on the processing

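The number of genes with a 2-fold range was 3040 of 14348 at a mean of at least 1 CPM, 177 of 4216 at 50 CPM, and 630 to 892 with 1 library left out, the lowest without library 4. The 25 highest genes held 36.0% of the signal, 11.8% of the counts without mitochondrial genes, and 14.2% to 14.6% with 1 library left out. The log2 range of the summed astrocyte list, 0.34, was 0.57 in the signal table, 1.20 without S100B and 1.63 for the median of the members. It was 0.16 to 0.34 with 1 library left out, with 0.16 without library 1 and 0.18 without library 3. The log2 range of the mesenchymal list, 1.88, was 3.35 without SPARC and 1.05 to 1.88 with 1 library left out, the lowest without library 2. The cause of these shifts was not tested. The other 58 alternative values stayed within 1.5 times or 1 SD of the main value. Among them, 12 of 14 astrocyte genes were lowest in library 1 under TMM scaling, and 11 of 15 mesenchymal genes lowest in library 2. No paired analysis was possible because the values describe the tri-culture libraries alone and come from no test between groups. The mono-culture libraries carry the same batch numbers and were left out of any test by choice. With 1 library a batch, depth limits what can be said of genes under 5 CPM, and libraries at 0 were compared through a floor of 3 counts.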

Other observations

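Lists of other cell types held little signal beyond single genes. The 9 endothelial genes summed to 41.9, 21.8, 30.3 and 33.6 CPM in libraries 1 to 4, of which EGFL7, a secreted vessel protein gene, made 24.7, 14.7, 17.1 and 21.8 CPM. The cadherin gene CDH5 stood at 9.33, 3.72, 1.83 and 3.64 CPM. The 12 oligodendrocyte genes summed to 400, 385, 344 and 331 CPM, the largest share from MBP at 277, 275, 232 and 220.3 CPM. The myelin genes MOG and MOBP had no count in any library. Of 8 nuclear-retained RNA and replication histone genes, MALAT1 had 1 count in all. How reads over shared bases or with several matches were counted is not given in the sources used here, so its level is uncertain, as is that of CD68. The tryptase gene TPSAB1 was the most abundant of the 15 erythroid, megakaryocyte and mast cell genes, at 1.34, 1.92, 1.49 and 2.27 CPM.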
